A study of Mus musculus with 6 samples.

Results

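The genes described here are 9 components of bacterial and nucleic acid sensing in mouse myeloid cells, namely the Toll-like receptor genes Tlr1, Tlr2, Tlr3, Tlr4, Tlr7, Tlr9 and Tlr13, the co-receptor gene Cd14 and the accessory gene Ly96. They were chosen by name from the 31054 features of the deposited count matrix, and each matched 1 feature. The study, on embryonic precursors of osteoclasts, used 10x Genomics droplet single-cell RNA sequencing of transcript 3-prime ends, with unique molecular identifiers (UMIs). By its labels there are 6 samples, 2 in each of 3 groups. One group is of embryos carrying Cx3cr1CreER and R26tdTomato whose mothers received 4-hydroxytamoxifen at E9.5, and another is of embryos carrying Csf1r-Mer-iCre-Mer, Csf1r-EGFP and R26tdTomato that received it at E8.5. Macrophage and monocyte lineage cells of both were taken from E14.5 whole bodies. The third group is total bone marrow of wildtype C57BL/6 mice aged 2 months. In the embryos the Cre enzymes are driven from the Cx3cr1 or Csf1r gene, and tdTomato marks cells that expressed the driver when tamoxifen acted, and their progeny.

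The numbers 1 to 4 that end the barcodes correspond to none of the labels, and no cell was assigned a genotype, stage or group here. The deposited matrix is named after Cx3cr1 and Csf1r, the drivers of both embryo groups, and its name does not mention bone marrow. The name ties no barcode number to a sample. The matrix was therefore read as 1 pooled sample of 4 unnamed libraries. With no map to samples the libraries were not taken as replicates, and no test between cell classes was run. Each level is in CPM, the UMIs of a gene scaled to the class total. Where the 4 libraries' values are given, they are in the order of library 1 to library 4. A level given as 1 value is pooled, and its spread between libraries is then not shown. Intervals cover counting error only. Whether the libraries are separate animals is not stated in the sources used here.

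Toll-like receptors are membrane proteins whose outer or luminal part binds a microbial molecule and whose inner part recruits the adaptors MyD88 or TRIF, which lead to NF-kB and interferon regulatory factors. TLR4 binds lipopolysaccharide of gram-negative bacteria together with MD-2, the product of Ly96, after CD14 has delivered the lipid. TLR2 senses bacterial lipopeptides as a pair with TLR1 or TLR6, while TLR3, TLR7, TLR9 and TLR13 sit in endosomes. TLR3 binds double-stranded RNA, TLR7 single-stranded RNA, TLR9 unmethylated DNA and TLR13 bacterial ribosomal RNA. Macrophages and monocytes are known for broad use of these receptors, whereas osteoclasts, the bone-resorbing cells of the same lineage, are known mainly for resorption.

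In the GENCODE M21 annotation of GRCm38, Tlr4 lies at chr4:66827584-66930284, Ly96 at chr1:16688051-16709611 and Tlr2 at chr3:83836272-83841767. Tlr1 lies at chr5:64924679-64933563, with its paralogue Tlr6 on the same chromosome 18467 bases away. Whether the authors' counting could tell all reads of the pair apart was not examined. Tlr7 and Tlr13 are both on chromosome X, at chrX:167304929-167330558 and chrX:106143204-106160493, while Tlr3 is at chr8:45395665-45411080 and Tlr9 at chr9:106222598-106226883. No annotated gene overlaps a member on its own strand, and only Tlr3 has an overlapping gene on the other strand, Gm45542.

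The 300-base windows around the start of 2 members, from 250 bases before to 50 after, are shown because both members were higher in macrophage-like than in monocyte-like cells and both windows hold a myeloid motif. Level and motif both entered the choice, so the windows do not link the 2. Tlr9, which was barely detected, held the same motif. They are RefSeq promoters of GRCm38.p6, on the minus strand at chr5:64933509-64933808 for Tlr1 and on the plus strand at chrX:106143025-106143324 for Tlr13, and capitals mark GAGGAA, the core motif of the myeloid factor PU.1.
Tlr1: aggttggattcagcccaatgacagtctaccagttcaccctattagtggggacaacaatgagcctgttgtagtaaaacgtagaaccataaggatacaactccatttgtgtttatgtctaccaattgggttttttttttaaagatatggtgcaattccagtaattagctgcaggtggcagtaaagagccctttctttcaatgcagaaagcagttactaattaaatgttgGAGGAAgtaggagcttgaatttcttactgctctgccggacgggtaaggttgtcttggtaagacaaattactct
Tlr13: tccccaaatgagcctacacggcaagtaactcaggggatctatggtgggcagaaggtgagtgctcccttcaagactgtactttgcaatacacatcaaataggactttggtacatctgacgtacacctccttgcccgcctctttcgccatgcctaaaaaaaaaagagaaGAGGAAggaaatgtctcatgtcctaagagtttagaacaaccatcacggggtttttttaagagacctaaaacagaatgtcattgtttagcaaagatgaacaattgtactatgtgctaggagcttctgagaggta
RefSeq windows were at hand for 5 of the 9 members (Tlr1, Tlr2, Tlr3, Tlr9 and Tlr13), 6 windows in all since Tlr1 has a second start. GAGGAA, searched on both strands, was in 3 of the 6 windows (Tlr1, Tlr9 and Tlr13), against 28.3% of 32851 promoters of the same length. The AP-1 motif TGANTCA was in 1 of the 6 (Tlr9) and in 7.81% of all promoters. Overlaps between motifs were not removed, and a match describes letters, not a bound site.

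The matrix held 39048 barcodes and 561415289 UMIs, from 106500620 to 198754246 per library. Of these, 34587 cells were kept, with median depths of 13077 to 14956.5 UMIs per library. Of the kept barcodes, 1151 (3.33%) carry a 16-base sequence that is also present in another library. Classes were gated on markers that contain none of the members, which gave 1082 microglia-like, 708 Kupffer-like, 69 osteoclast-like, 764 Clec4a-high precursor-like, 8464 macrophage-like (Lyve1, Mrc1, Pf4 and others), 549 dendritic-like and 4282 monocyte-like cells. Summed marker levels followed the names, but the gates used these same markers, so the sums describe the classes and do not test the names. Osteoclast markers came to 9912 CPM in osteoclast-like cells (8200 to 11265 per library) and 629 CPM in macrophage-like cells, of which 598 CPM was Ckb, while Ctsk, the bone collagenase cathepsin K, was at 2983 and 0.739 CPM. Microglia markers came to 3201 CPM in microglia-like cells and 285.6 CPM in macrophage-like cells. Neutrophil-like cells numbered 208 and 378 in libraries 3 and 4 but 3 and 4 in libraries 1 and 2, so the libraries differ in the cells they hold. Erythroid-like cells, which are not known to express these receptors, gave 1 measure of the background of free RNA. Levels of different genes are not compared, since the 3-prime tags count transcripts with unequal efficiency.

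Cd14, the gene of the lipopolysaccharide co-receptor, split the libraries in nearly every class. In macrophage-like cells it was at 130.1, 155.4, 382.4 and 497.3 CPM in the 4 libraries, and in monocyte-like cells at 141, 149.5, 449.9 and 553 CPM. Libraries 3 and 4 lay above libraries 1 and 2 in both classes, with no overlap. The same split held in microglia-like cells, at 116.2, 153.2, 271.3 and 271.1 CPM, in Kupffer-like cells, at 72.7, 99.4, 192.7 and 181.8 CPM, and in Clec4a-high precursor-like cells, at 195.6, 189.4, 447.1 and 569.1 CPM. Dendritic-like cells had 63.2, 112.6, 140.9 and 129.8 CPM. Erythroid-like cells had 3.68, 2.06, 6.71 and 10.04 CPM, so the background was low in every library in these deep cells. Their median depth was 36012 UMIs, against 13653.5 in macrophage-like, 11933 in Kupffer-like and 9903.5 in microglia-like cells. Among shallower classes outside the blood lineages, neural-like cells (median 5384 UMIs) had 32.4 CPM of Cd14 (7.13 to 84 per library). Mesenchymal-like cells (10089.5 UMIs) had 23.3 CPM (8.69 to 43.7), and hepatocyte-like cells (8168 UMIs) 5.5 CPM. The background may thus be higher in shallower classes than in erythroid-like cells, and the part of free RNA was not tested. Tlr4 split the libraries the other way in the 6 myeloid classes above, with libraries 1 and 2 above libraries 3 and 4. Which samples the libraries are cannot be told here, and the library and any group it may hold cannot be told apart. Beside it, the summed level of 10 early-response genes, which are known to be induced by tissue dissociation, was 5541, 5847, 5590 and 5744 CPM in macrophage-like cells of the 4 libraries, whereas that of 5 chemokine-rich markers was 1673, 1688, 3250 and 3281 CPM. Neutrophil markers, summed in the same cells, were at 35, 31.7, 227.7 and 265.1 CPM. Neutrophil-like cells themselves had the highest pooled Cd14 of the classes ranked, at 410.3 CPM (63.8 to 570.5 per library), overlapping the monocyte-like range. The part of these in the Cd14 levels was not tested.

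Tlr4, the lipopolysaccharide receptor itself, was highest in Kupffer-like cells, which carry markers of the macrophages of the liver. It had 45.3, 51.7, 28.9 and 28.9 CPM there, against 24.6, 26.2, 18.4 and 19.1 CPM in macrophage-like cells. Every Kupffer-like library exceeded every macrophage-like one, and the pooled levels were 39.3 CPM (95% counting interval 35.5 to 43.4) and 22.6 CPM (21.7 to 23.4), a log2 difference of 0.60 on the scale of log2(CPM + 10). Microglia-like cells had 20.8, 24.6, 12.3 and 14.9 CPM, which overlaps the macrophage-like range. Macrophage-like cells in turn exceeded monocyte-like cells, which had 12.1, 12.9, 9.43 and 9.37 CPM, by 0.55 to 0.66 on the log2 scale in each library. Dendritic-like cells had 12.4, 12.8, 2.82 and 3.23 CPM, from 43 UMIs in all, and osteoclast-like cells 2 UMIs in all.

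Ly96, whose product MD-2 holds the lipid in the TLR4 complex, had 114.5, 107, 98.5 and 75.1 CPM in Kupffer-like cells, against 76.4, 80.6, 70.2 and 68.9 CPM in macrophage-like cells. The difference was 0.36 and lay between 0.11 and 0.53 in the libraries. In microglia-like cells Ly96 was low in every library, at 36.3, 38.8, 33.7 and 33.1 CPM, and the difference from macrophage-like cells was steady, from -0.90 to -0.87 per library around -0.89 pooled. Tlr4 differed little in the same comparison, by -0.16 (-0.35 to -0.07), so the transcripts of receptor and lipid-binding partner stood in different proportions in microglia-like cells. Monocyte-like cells were also below macrophage-like cells in every library, at 47.2, 50.3, 41.3 and 39.8 CPM. Outside the myeloid classes, endothelial-like cells had 46.3 CPM of Ly96 pooled (163 UMIs, 24 to 52.8 per library). They had 13.6 CPM of Cd14 (3.13 to 54.1) and 4.26 CPM of Tlr4 (2 to 7.31).

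**Figure D1:**
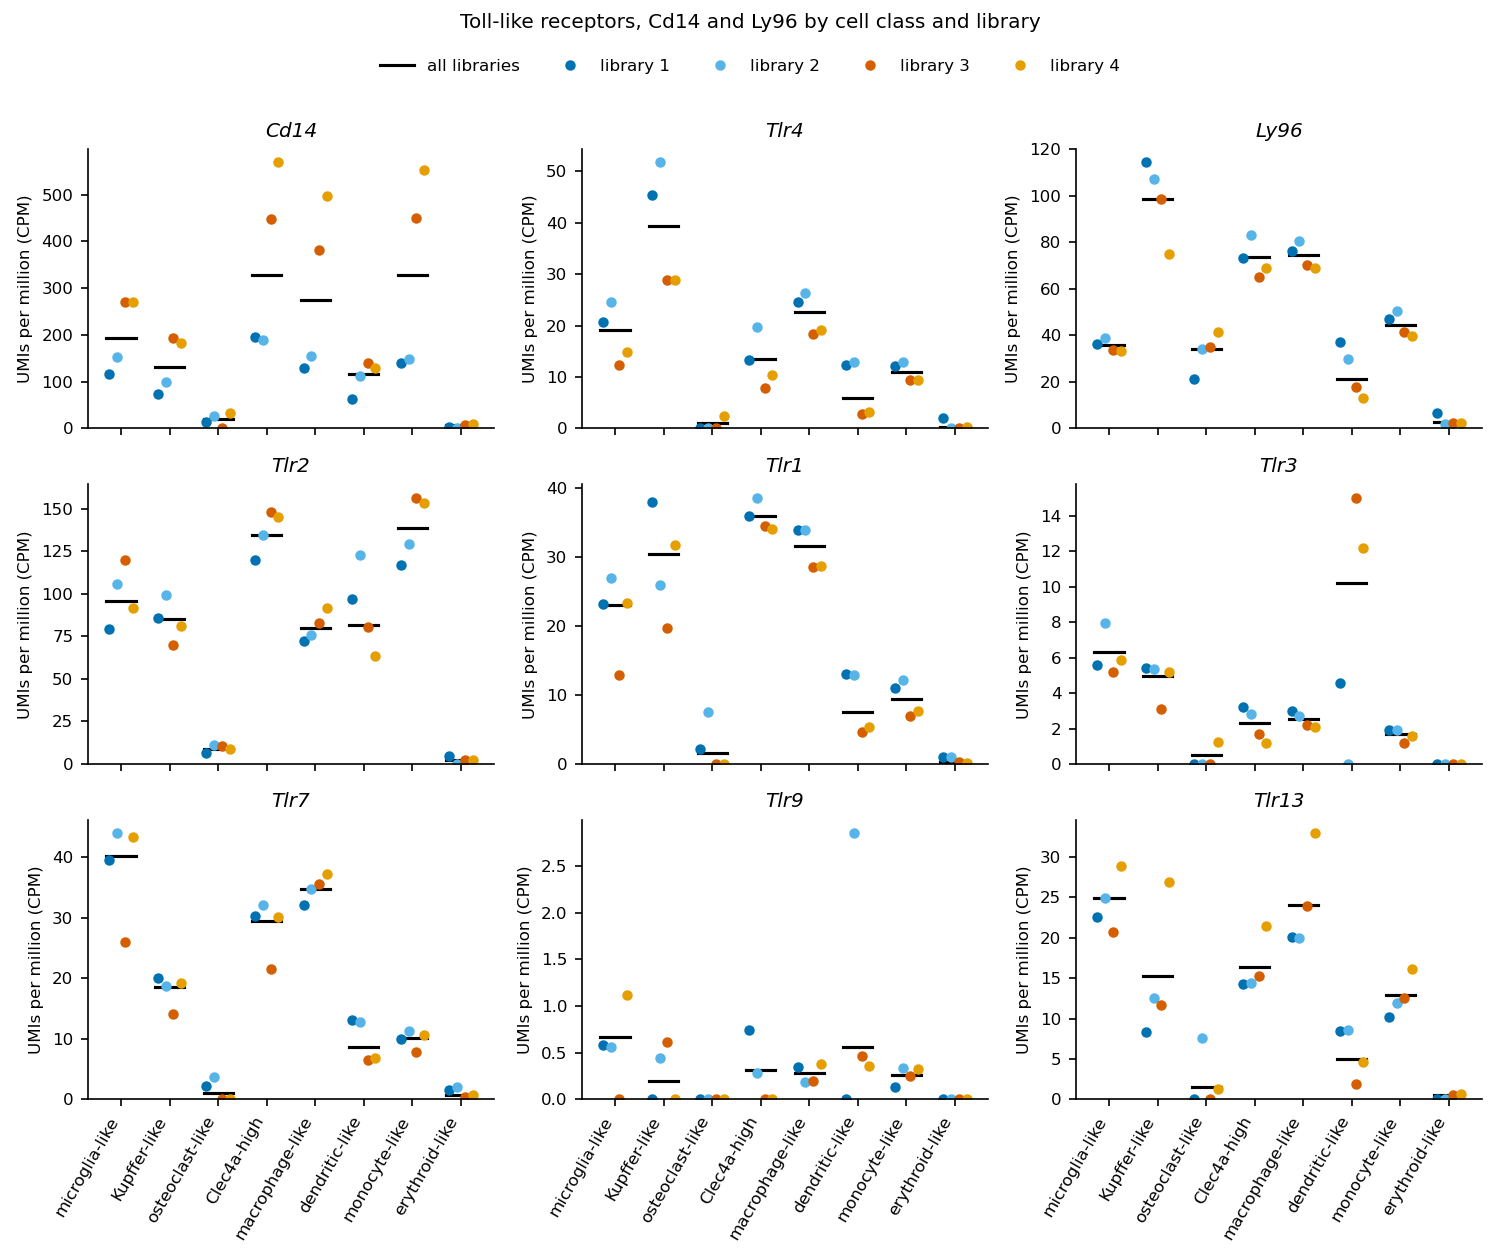
Levels of the 9 members in CPM (linear axes from 0, 1 panel per gene) in 8 gated cell classes, with points for libraries 1 to 4 and a bar for all cells pooled. Cd14 is split by library, Tlr4 is highest in Kupffer-like cells at 39.3 CPM pooled, and the pooled osteoclast-like level is at or under 34.3 CPM in every panel.

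Tlr2, the lipopeptide receptor, was lower in macrophage-like than in monocyte-like cells. It had 72.6, 75.8, 82.6 and 91.9 CPM in macrophage-like cells, against 117.1, 129.2, 156.5 and 153.3 CPM in monocyte-like cells, a log2 difference of -0.72 (-0.85 to -0.62 per library) with no overlap between the classes. Clec4a-high precursor-like cells, which passed no other gate and carried Clec4a1, Clec4a2, Clec4a3 and Socs3, had 119.7, 134.8, 148.3 and 145.3 CPM, which is above every macrophage-like library and within the monocyte-like range. Microglia-like cells (79.3, 105.6, 119.8 and 91.8 CPM) and Kupffer-like cells (86.1, 99.4, 70.2 and 80.9 CPM) lay near macrophage-like cells.

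Its partner gene Tlr1 went the other way. It was at 33.9, 33.8, 28.5 and 28.6 CPM in macrophage-like cells, against 11, 12.2, 6.9 and 7.63 CPM in monocyte-like cells, a ratio of 3.34 pooled. Clec4a-high precursor-like cells had 36, 38.6, 34.5 and 34.1 CPM, above the macrophage-like level of the same library in each case. These cells thus stood near monocyte-like cells for Tlr2 and near macrophage-like cells for Tlr1. Tlr6, the other partner of Tlr2, had 10.2 CPM in macrophage-like cells and 5.69 CPM in monocyte-like cells.

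Tlr7, the endosomal single-stranded RNA receptor, had 32.1, 34.8, 35.5 and 37.1 CPM in macrophage-like cells, against 9.95, 11.4, 7.85 and 10.6 CPM in monocyte-like cells, a ratio of 3.43. The classes did not overlap, and the libraries differed little within each. Kupffer-like cells were lower than macrophage-like cells, at 20.1, 18.7, 14.2 and 19.3 CPM, while microglia-like cells reached 39.5, 43.9, 25.9 and 43.2 CPM. Plasmacytoid dendritic-like cells, known as users of TLR7 and TLR9, numbered 87 and had 21 UMIs of Tlr7 (16.2 CPM, in libraries 3 and 4) and 0 of Tlr9, for which the exact upper limit was 2.85 CPM.

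Tlr13, which senses bacterial 23S ribosomal RNA and has no human counterpart, had 20.1, 20, 23.9 and 32.9 CPM in macrophage-like cells, against 10.2, 11.9, 12.6 and 16.1 CPM in monocyte-like cells. Microglia-like cells were at 22.5, 24.9, 20.7 and 28.9 CPM. In Kupffer-like cells it was at 8.29, 12.5, 11.7 and 26.9 CPM, below macrophage-like cells in each library but by amounts from -0.72 to -0.22. Library 4 had the highest value in these 4 classes.

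Tlr3, the double-stranded RNA receptor, was near or under 10 CPM in all classes. Dendritic-like cells had 4.56, 0, 15 and 12.2 CPM, from 73 UMIs in all, against 1.94, 1.89, 1.2 and 1.6 CPM in monocyte-like cells, a pooled ratio of 6.06 (counting interval 4.51 to 8.07). The higher level was in libraries 3 and 4, whereas 7 and 0 UMIs stood in libraries 1 and 2, so the difference was not seen in every library. Microglia-like cells had 5.56, 7.93, 5.18 and 5.89 CPM and macrophage-like cells 3.01, 2.73, 2.18 and 2.1 CPM, a ratio of 2.46 (1.89 to 3.17) that held in each library. Endothelial-like cells had 9.09 CPM.

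Tlr9, the receptor for unmethylated DNA, was barely detected. It had 8 UMIs in 1082 microglia-like cells (0.664 CPM, counting interval 0.286 to 1.31), 35 UMIs in 8464 macrophage-like cells (0.284 CPM, 0.198 to 0.396) and 23 UMIs in 4282 monocyte-like cells (0.264 CPM). The ratio of microglia-like to macrophage-like cells was 2.33, with a counting interval of 0.935 to 5.12, so a difference was not detectable at this depth.

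A member was counted as different when its pooled log2(CPM + 10) differed by 1 or more, that is 2-fold, which understates differences of low genes. Between macrophage-like and monocyte-like cells, 2 of the 9 members were past it, both higher: Tlr7 at 1.15 (1.07 to 1.35 per library) and Tlr1 at 1.10 (0.98 to 1.19). Of 7643 genes with at least 10 CPM in either class, 6.28% were higher by as much and 3.85% lower. Tlr4, Ly96 and Tlr13 were higher by 0.57 to 0.64 and Tlr2 was lower. Genes seen in both classes had a median ratio of 0.23 on the log2 scale, and relative to that shift neither Tlr1 nor Tlr7 was past 2-fold. That median is over 17527 genes, low ones included, whereas over the 7643 genes with at least 10 CPM the median difference was 0.0040, against which both remain past it. Without library 1, 2, 3 or 4 in turn the count stayed at 2.

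**Figure D2:**
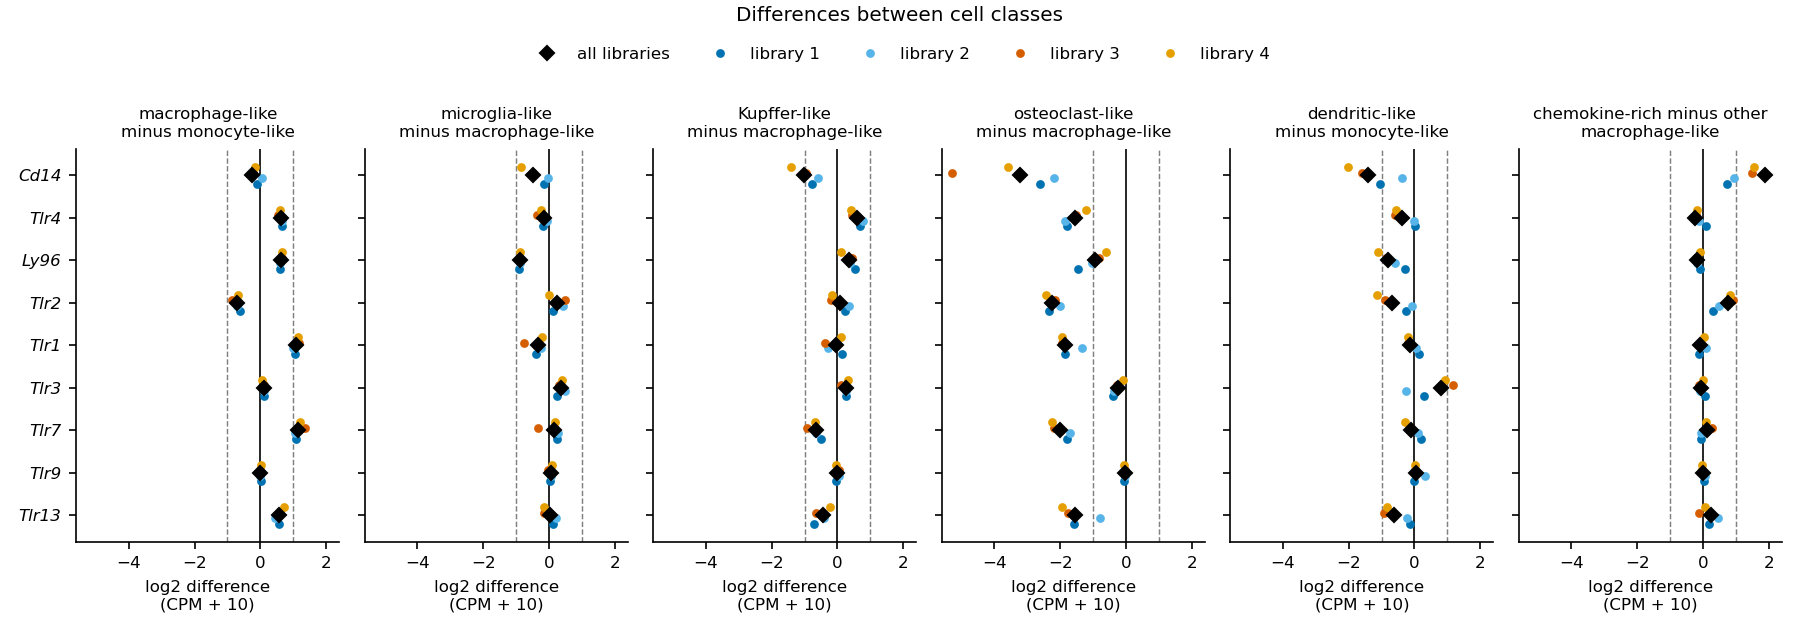
Log2 differences of CPM + 10 for the 9 members in 6 comparisons, with diamonds for pooled cells, points for libraries 1 to 4 and dashed lines at 2-fold. Osteoclast-like cells are lower than macrophage-like cells by more than 2-fold for 6 members, and the Cd14 points of the chemokine-rich comparison all lie left of the pooled diamond at 1.87.

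Osteoclast-like cells carried little of the receptors. In them, 6 of the 9 members were lower than in macrophage-like cells past the threshold, whereas 11% of 7888 genes were lower and 6.59% higher. Of the 9 members, 7 reached 10 CPM, all of them through macrophage-like cells or both classes, so the count is not read as support. Cd14 was at 12.9, 26.4, 0 and 32.7 CPM (39 UMIs) in osteoclast-like cells, against the 130.1 to 497.3 CPM of macrophage-like cells, a ratio of 0.0748 (0.0532 to 0.102). Tlr2 was at 6.43, 11.3, 10.8 and 8.8 CPM (17 UMIs), against 72.6 to 91.9 CPM. Both were low in every library, with no overlap. The pooled levels, 20.6 CPM of Cd14 and 8.96 CPM of Tlr2, were near those of mesenchymal-like cells, at 23.3 and 9.05 CPM. The part of free RNA in them was not tested. Tlr1 and Tlr13 had 3 UMIs each and Tlr4 and Tlr7 had 2 UMIs each in 1897782 UMIs of osteoclast-like cells, against 2777 to 4270 UMIs in macrophage-like cells. Their ratios were 0.0500 (0.0103 to 0.146) for Tlr1, 0.0657 (0.0135 to 0.192) for Tlr13, 0.0467 (0.00565 to 0.169) for Tlr4 and 0.0304 (0.00368 to 0.110) for Tlr7.

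Ly96 differed least of the 7 members that reached 10 CPM. Osteoclast-like cells had 21.4, 34, 35.1 and 41.5 CPM of it (65 UMIs), against 68.9 to 80.6 CPM in macrophage-like cells, a ratio of 0.460 (0.354 to 0.586). Macrophage markers summed to 161 CPM in osteoclast-like cells (51.3 to 226 per library) against 7016 CPM in macrophage-like cells (6472 to 7339), with Cbr2 and Cd163 at 0. Early-response genes summed to 1480 CPM in osteoclast-like cells (1335 to 1785) and 5683 CPM in macrophage-like cells. The part of either in the member levels was not tested. The osteoclast-like levels rest on 69 cells, with 15, 11, 15 and 28 in the libraries and a median of 26806 UMIs.

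Kupffer-like cells had 1 member past 2-fold, Cd14, which was lower at -1.02, while 3% of 7602 genes were lower and 3.06% higher. Within libraries the difference was -0.76, -0.60, -0.95 and -1.40, so that the size was past the threshold in 1 of 4 libraries, and without library 4 the pooled call was lost. Early-response genes summed to 3087 CPM in Kupffer-like cells (2472 to 3713 per library), against 5683 CPM in macrophage-like cells (5541 to 5847). Their part in the Cd14 difference was not tested. No member was past the threshold, set on log2(CPM + 10), between microglia-like and macrophage-like cells, where 2.56% of genes were higher and 1.84% lower. On CPM alone, Ly96 and Tlr3 were past 2-fold, at ratios of 0.480 and 2.46.

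Dendritic-like cells differed from monocyte-like cells past the threshold on log2(CPM + 10) in 1 member, Cd14. It was lower by 1.42 pooled, and by 1.04, 0.38, 1.61 and 2.01 in the 4 libraries. Of 7384 genes, 1.84% were lower and 3.01% higher by as much. Without library 4 the call of Cd14 was lost. On CPM alone, Ly96, Tlr13 and Tlr3 were also past 2-fold, at ratios of 0.480, 0.390 and 6.06, as was Tlr9 at 2.12 on 4 UMIs. Tlr13 (-0.61), Tlr2 (-0.70) and Ly96 (-0.80) were lower in all 4 libraries, by smaller amounts in libraries 1 and 2. Tlr3 was higher, at 0.79, and had passed the 10 CPM level only through dendritic-like cells. The dendritic-like cells of libraries 3 and 4 had more Irf8, at 484.6 and 572.2 CPM, than those of libraries 1 and 2, at 172.7 and 145.4 CPM, and monocyte markers summed to 2085 CPM in dendritic-like cells against 3480 CPM in monocyte-like cells.

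Among macrophage-like cells, 801 carried at least 4 of the 5 chemokine-rich markers Cxcl1, Cxcl2, Ccl3, Ccl4 and Gadd45b. Cd14 was at 215.6, 295.2, 821.1 and 1034 CPM in them, against 125.4, 148.8, 287.6 and 345.7 CPM in the other macrophage-like cells. It was thus higher in each library, by 0.74, 0.94, 1.48 and 1.55, while the pooled value of 1.87 lay outside that range, with 105, 82, 209 and 405 of the cells in the 4 libraries. In libraries 1 and 2 alone it was under 2-fold. It was the only member past 2-fold, and 0.951% of 7358 genes were higher and 0.0272% lower. Tlr2 was higher in each library, by 0.32 to 0.91. Tlr4 was at -0.23 pooled, outside its library values of 0.08, -0.13, -0.21 and -0.18, so it was not lower in each library. Ly96 was at -0.18 pooled and between -0.21 and -0.08 in the libraries. Early-response genes summed to 7822 CPM in chemokine-rich cells and 5404 CPM in the others, and their part in the Cd14 difference was not tested.

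Cd14 also went with the level of early-response genes in macrophage-like cells. Macrophage-like cells were split within each library into 4 bins of equal size by the summed share of the early-response genes, an order chosen after the data had been seen. Cd14 averaged 104.4, 199.4, 331.3 and 514.8 CPM from the lowest to the highest bin, and was higher in each successive bin of each library, for instance 66.5, 116.8, 144.8 and 209.1 CPM in library 1 and 146.5, 344.3, 627.4 and 937.4 CPM in library 4. In the lowest bin the 4 libraries were at 66.5, 102.5, 113.3 and 146.5 CPM, closer to each other than over all cells. Tlr4 was at 21.9, 21.9, 22.1 and 24.8 CPM pooled over the bins, and Tlr1 at 31.4, 31.1, 32.5 and 31.5 CPM. Between the lowest and highest bin Tlr4 went from 25.2 to 30, 24.1 to 28.3 and 16.3 to 21.5 CPM in libraries 1 to 3. In library 4 it fell from 19.3 to 17.4 CPM. Tlr1 went from 34.6 to 38.7 CPM in library 1 and from 31.7 to 32.9 CPM in library 2. In libraries 3 and 4 it fell from 29.1 to 23.1 and from 28.5 to 27.2 CPM. Tlr2 went with Cd14 to a smaller degree, at 64.8, 77.7, 87.4 and 93.5 CPM, as did Tlr7, at 30.1, 30.6, 37 and 42.8 CPM, and Ly96, at 68.9, 70.8, 74.4 and 86.6 CPM. Tlr7 and Ly96 were higher in the highest than in the lowest bin in all 4 libraries. Tlr13 was lower in the highest bin in all 4, at 26.1, 24.9, 22.7 and 22 CPM over the bins. Cxcl2, an NF-kB target chemokine, had 170.2, 586.7, 1135 and 1768 CPM over the same bins. The direction of Tlr13 differed by class. Split in the same way, monocyte-like cells had 10.3, 12.4, 14.8 and 14.9 CPM of it. Kupffer-like cells had 9.96, 15.3, 16.6 and 16.4 CPM, and microglia-like cells 26.5, 28.8, 18.4 and 25.4 CPM.

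**Figure D3:**
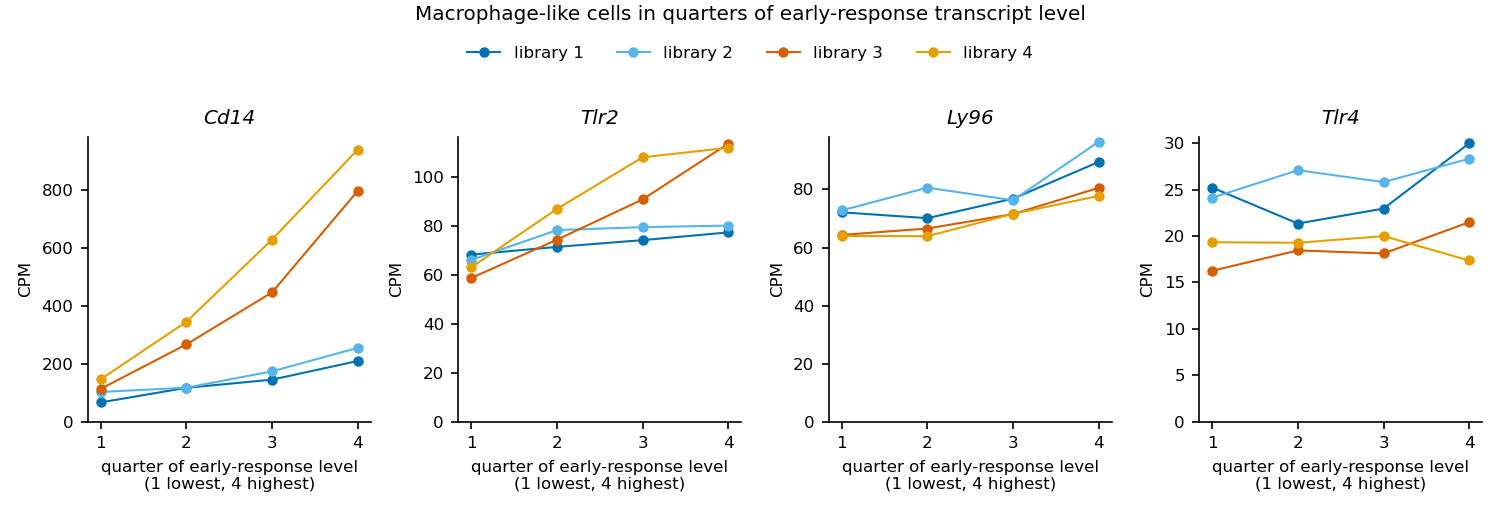
Levels in CPM (linear axes from 0) of Cd14, Tlr2, Ly96 and Tlr4 in macrophage-like cells, split within each library into 4 bins of early-response level, with 1 line per library. Cd14 climbs in all 4 libraries, from 104.4 CPM pooled in the lowest bin to 514.8 CPM in the highest. Tlr4 is between 21.9 and 24.8 CPM pooled, and is higher in the highest than in the lowest bin in libraries 1 to 3 but not in library 4.

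Cycling macrophage-like cells, with at least 4 of 7 mitosis markers, had lower levels than non-cycling ones, with at most 1, of all 7 members that reached 10 CPM, in each of the 4 libraries, though none by 2-fold. Cd14 was at 206 CPM in cycling cells and 320.6 CPM in non-cycling cells, a difference of -0.61 (-0.77 to -0.54). The other 6 were between -0.39 for Ly96 and -0.19 for Tlr4. Over all 7501 genes the median difference was 0.02, and 0.133% of genes were lower by 2-fold and 2.88% higher. Median depth was 19601 UMIs in cycling cells and 12122 UMIs in non-cycling ones. Early-response genes summed to 4643 CPM in cycling and 6512 CPM in non-cycling cells, and the part of either in the differences was not tested. Clec4a-high precursor-like cells had no member past 2-fold from macrophage-like cells, against 1.37% of genes higher and 2% lower. Tlr2 was 0.68 higher (0.61 to 0.77), while Tlr4 at -0.47 (-0.67 to -0.29) and Tlr13 at -0.37 (-0.45 to -0.30) were lower in each library.

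Monocyte-like cells with an interferon signature (193 cells with at least 3 of Ifit1, Ifit2, Ifit3, Isg15, Rsad2 and Cxcl10) had 26.8, 30.9, 27.8 and 22.8 CPM of Tlr7, against 8.83, 10.4, 7.52 and 10.2 CPM in other monocyte-like cells. The ranges did not overlap, at a log2 difference of 0.94, just under the threshold that 2.04% of genes passed upward and 0.0837% downward. Tlr3 was at 7.99 CPM (28 UMIs) against 1.42 CPM, a ratio of 5.62 (3.58 to 8.53), higher in each library though on 1 and 2 UMIs in libraries 3 and 4. Tlr1 was 17.7 against 9.12 CPM. Tlr2 was alike, at 141.2 and 138.5 CPM.

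Detection of the lipopolysaccharide receptor trio in 1 cell depended on depth. After thinning to 2000 UMIs per cell, 16 of the 8427 macrophage-like cells left (0.190%, exact binomial interval 0.109% to 0.308%) had UMIs of Tlr4, Cd14 and Ly96 together, and with no thinning 14.2% of 8464 did. At 8000 UMIs per cell the shares were 8.46% of 461 Kupffer-like cells (6.08% to 11.4%), 2.86% of 733 microglia-like cells (1.78% to 4.35%), 4.93% of 7176 macrophage-like cells (4.44% to 5.46%) and 2.19% of 4013 monocyte-like cells (1.76% to 2.69%). In dendritic-like cells it was 0 of 439, which allows a share of up to 0.683%, and in erythroid-like cells 0 of 710, which allows up to 0.423%. At 8000 UMIs, a depth chosen after the data had been seen, the intervals of Kupffer-like, macrophage-like and monocyte-like cells did not overlap. The intervals count cells of 1 pooled matrix, which are not replicates, so this does not test a difference between classes. At 4000 UMIs the shares of Kupffer-like and macrophage-like cells were 1.28% and 1.29%. The shallower cells left out at 8000 UMIs were 247 Kupffer-like, 349 microglia-like, 1288 macrophage-like and 269 monocyte-like cells. Median depths before thinning were 11933 UMIs in Kupffer-like, 13653.5 in macrophage-like, 19416 in monocyte-like and 36012 in erythroid-like cells.

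Among macrophage-like cells, a Cd14 UMI did not go with a higher share of Tlr4. At 8000 UMIs, 16.5% of 4460 macrophage-like cells with a Cd14 UMI had a Tlr4 UMI, against 17.3% of 2716 cells without one, and the difference was between -1.76 and 0.740 percentage points in the libraries. In Kupffer-like cells it was 32.7% of 208 against 22.9% of 253, higher in each library. For Tlr2 the shares were 44.6% with and 37.7% without Cd14 in macrophage-like cells, and 65.3% and 46.9% in monocyte-like cells, higher in each of the 4 libraries in both. Cells were not replicates here, and the shares describe these libraries. Beside these, 0.423% of erythroid-like cells had a Tlr4 UMI and 5.77% a Cd14 UMI at 8000 UMIs.

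**Figure D4:**
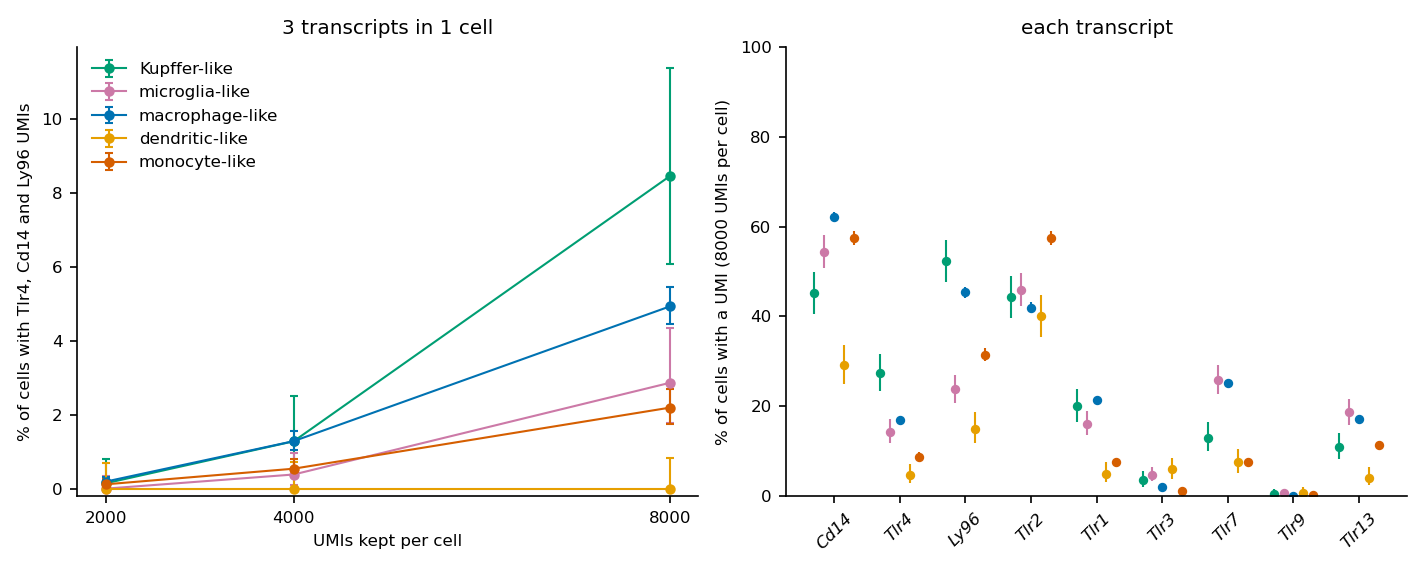
Left, percent of cells with UMIs of Tlr4, Cd14 and Ly96 together after thinning to 2000, 4000 or 8000 UMIs. Right, percent of cells with a UMI of each member at 8000 UMIs, for 5 classes, with exact binomial 95% intervals on both. Kupffer-like cells reach 8.46% on the left, dendritic-like cells stay at 0, and Tlr4 on the right is at 27.3% of Kupffer-like, 16.8% of macrophage-like and 8.80% of monocyte-like cells.

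The other genes of the pathway were counted over 7 lists, of relatives, adaptors, kinases, factors, inhibitors, targets and other sensors, 82 measured genes in all. Among Toll-like receptor relatives tested, 2 of 3 were higher in microglia-like than in macrophage-like cells, where 2.56% of all genes were higher and 1.84% lower. These were Cd180, at 175.4 and 74.6 CPM, and Ly86, at 1898 and 675.3 CPM, which encode the receptor RP105 and its partner MD-1, known to dampen TLR4 signalling in myeloid cells. Both were higher in all 4 libraries, by 1.13 (1.05 to 1.34) and 1.48 (1.36 to 1.54). In osteoclast-like cells both were lower, at 12.1 CPM and 33.7 CPM.

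Tlr12, a profilin receptor of mice, was at 15, 16.9, 11.1 and 7.57 CPM in Kupffer-like cells, against 0.28 to 0.47 CPM in macrophage-like cells, and at 6.72 CPM in dendritic-like cells. Its partner Tlr11, named after its values had been seen, was at 4.34 CPM in dendritic-like cells (31 UMIs), against 0.206 CPM in monocyte-like cells, and at 0 in Kupffer-like cells. Marco, a scavenger receptor for bacteria, was at 1776 CPM in Kupffer-like cells against 8.13 CPM in macrophage-like cells. Of 16 kinases and ligases listed, 0 were past 2-fold between macrophage-like and monocyte-like, microglia-like and macrophage-like, or Kupffer-like and macrophage-like cells, with 11 to 13 tested. Over all genes the shares were 6.28% higher and 3.85% lower, 2.56% and 1.84%, and 3.06% and 3% in these comparisons, and a count of 0 among 11 to 13 genes is near them.

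Of 10 adaptors and trafficking genes tested in osteoclast-like cells, 4 were lower than in macrophage-like cells and 0 higher, while 11% of all genes were lower. Genes that reached 10 CPM in macrophage-like cells alone, such as Slc15a3, were among those tested, so the count is not read as support. Unc93b1, the chaperone that carries TLR3, TLR7, TLR9 and TLR13 to endosomes, had 30, 79.2, 21.6 and 27.6 CPM in osteoclast-like cells, against 537.9, 593.1, 532.8 and 519.4 CPM in macrophage-like cells. Slc15a3, an endosomal transporter of bacterial peptides, was at 4.22 against 95.3 CPM. Hsp90b1, the general chaperone of Toll-like receptors, stood near its macrophage-like level, at 618.1 and 731.8 CPM. Cd36, a scavenger receptor that assists TLR2, was at 135.7 CPM in macrophage-like cells, against 3.71 CPM in monocyte-like cells, and higher in each library, by 3.09 to 3.69 on the log2 scale.

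Among factors, Irf8 was lower in osteoclast-like than in macrophage-like cells, at 18.4 and 228.5 CPM, and Irf8 is known as a factor that restrains osteoclast formation. Nfkb2 was higher, at 109.2, 105.6, 64.8 and 98 CPM in osteoclast-like cells against 18.5 to 22.7 CPM in macrophage-like cells, as was the inhibitor Tnip1, at 81.7 against 15.3 CPM. Nfkb2 encodes the p100 precursor of the alternative NF-kB pathway that RANK uses. Of 15 target cytokines and chemokines, 8 reached 10 CPM, each of them in macrophage-like cells, and all 8 were lower in osteoclast-like cells, where 11% of all genes were lower. Since they entered through the class where they are high, the count is not read as support. Cxcl2 was at 25.8 against 866.5 CPM, and Ccl2 at 11.1 against 925.7 CPM. In microglia-like cells 2 of 9 targets were higher (Il1a and Ccl4) and 3 were lower than in macrophage-like cells, against 2.56% and 1.84% of all genes.

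**Figure D5:**
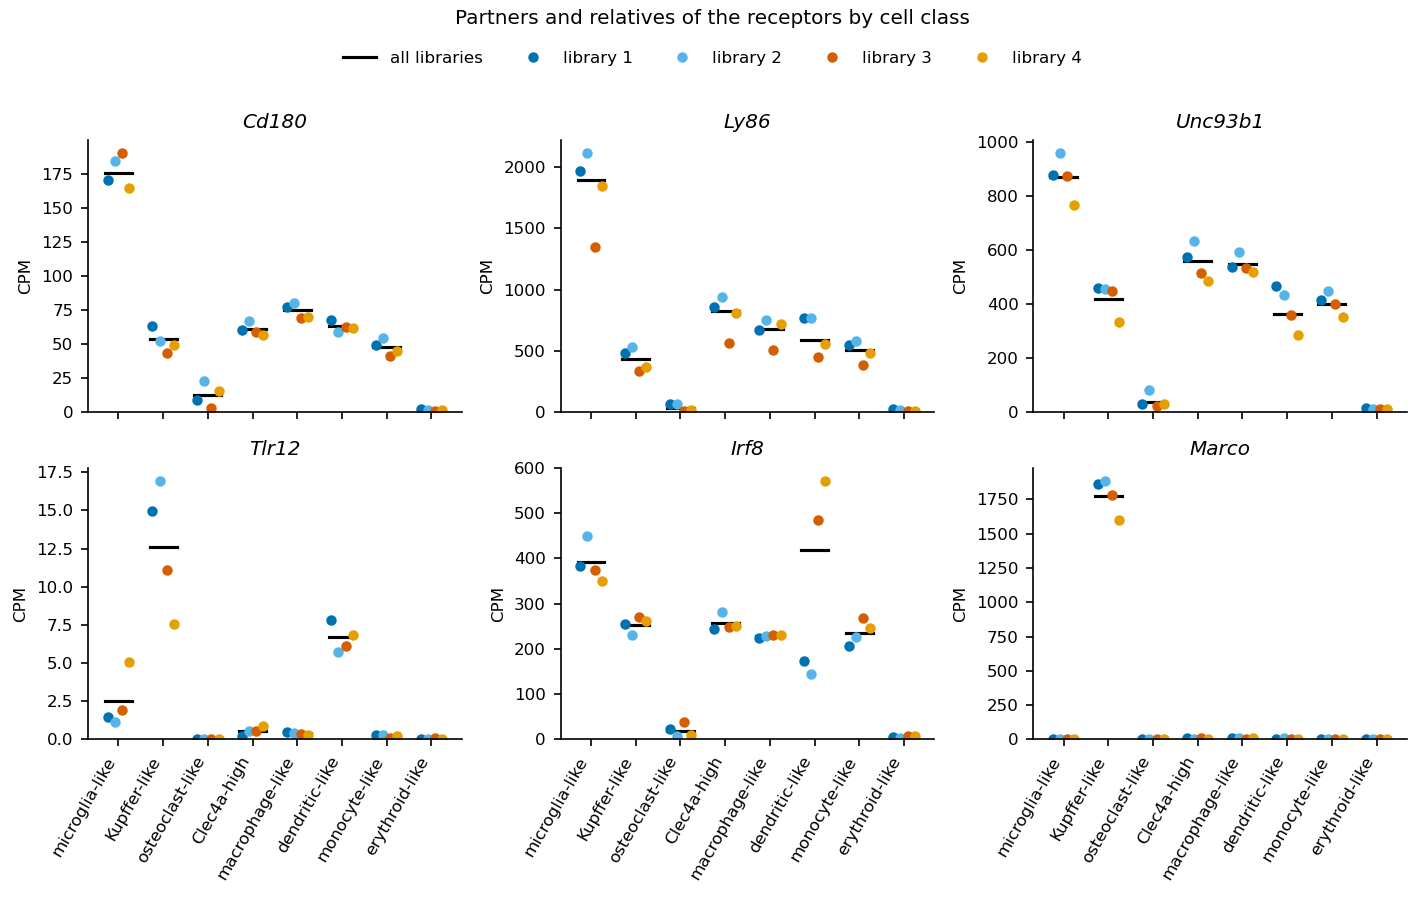
Levels in CPM (linear axes from 0) of 6 pathway genes in 8 cell classes, with points for libraries 1 to 4 and bars for pooled cells. Cd180 and Ly86 peak in microglia-like cells, Tlr12 and Marco in Kupffer-like cells, and Unc93b1 and Irf8 are low in osteoclast-like cells at 34.3 and 18.4 CPM.

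The patterns most like the members' were sought over 51 values, of 17 classes in up to 4 libraries each with at least 50 cells, among 6200 genes. Depth and free RNA are shared within a library, so the coefficients are a description. Cd14 was most like Cxcl2 (Pearson r = 0.92), Tlr2 (0.90) and Ccr1 (0.87). Tlr2 was most like Il6ra (0.96) and Casp1 (0.95), and Tlr1 most like Adgre1 (0.93), which encodes the macrophage marker F4/80. Tlr4 was closest to Il10rb (0.93), Ly96 to Tmem106a (0.93), Tlr7 to Ntpcr (0.93) and Tlr13 to C5ar1 (0.93), the complement C5a receptor. Tlr3 reached 0.73 with Acvrl1, and Tlr9, at its few UMIs, was most like Serpina1e (0.67).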

How the data were processed

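The study profiled cells from mouse embryos and from adult bone marrow with the Chromium Single Cell 3-prime kit, per the labels' protocols. The authors deposited raw UMI counts for every gene and cell in 1 matrix. Its file header gives Cell Ranger 3.0.1, whereas version 2.1.1 and the mm10 build are listed in the submitters' processing notes. Counting settings are not given in the sources used here. The barcode numbers 1 to 4 could not be tied to the 6 labelled samples, so sample groups were not compared and no p-values were computed.

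Cells needed at least 1000 UMIs, at least 500 genes and at most 10% mitochondrial UMIs, which removed 4461 barcodes. A class was gated by how many of its markers had at least 2 UMIs in a cell, with minimums set from marker values. Cells passing several gates (3787), which may hold doublets, and those passing none (10135, of which some are the Clec4a-high class) were left out, and no doublet caller was run. The members and lists were chosen with earlier results of these data known.

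Counts were summed per class, scaled to CPM and compared as log2(CPM + 10). Exact Poisson 95% intervals were put on levels, exact conditional intervals on ratios and exact binomial (Clopper-Pearson) intervals on shares, and all cover counting error only. A share of 0 is given with the limit that 3 counts allow. A gene was counted as tested with at least 10 CPM in either class. Shares were computed after thinning cells to 1 depth.

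All 9 members are named. From each pathway list the rule took the 4 genes with the highest CPM in any compared class, and any gene with at least 50 CPM in a class and a 4-fold difference, and for likeness the 3 most alike genes. The summing and calling steps were tested on simulated data. Python 3.11.15, numpy 2.4.6, scipy 1.17.1 and leidenalg 0.10.2 were used. Alternatives covered the pseudocount, scaling, cell filter, gates, clusters in place of gates, mixed cells, weighting of libraries, free RNA, low counts and each library left out. Positions are from GENCODE M21 and promoters from RefSeq.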

Additional observations from a re-analysis of the deposited data

Results flagged for a closer look

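Of 57 sets of 4 library values with at least 100 UMIs, 3 held a library that stood apart from the other 3, and chance alone flags about 1 in 20. Tlr2 in monocyte-like cells with an interferon signature was at 218 CPM (55 UMIs, 14 cells) in library 3, against 131.4, 142.4 and 133.1 CPM in libraries 1, 2 and 4. Tlr7 in cycling macrophage-like cells was at 30.4 CPM in library 4, against 27, 27.1 and 27 CPM in libraries 1, 2 and 3. Tlr13 in Clec4a-high precursor-like cells was at 21.4 CPM in library 4, against 14.3, 14.4 and 15.3 CPM in libraries 1, 2 and 3.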

How the results depend on the processing

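The count of members past 2-fold was 6 to 8 for osteoclast-like against macrophage-like cells and 0 for the cycling and Clec4a-high comparisons under each setting run. Between macrophage-like and monocyte-like cells it was 2, and 0 with median-of-ratios scaling. For microglia-like cells it was 0, and 2 with a pseudocount of 1 CPM (Ly96 lower, Tlr3 higher). For Kupffer-like cells the call of Cd14 (1) was lost (0) with median-of-ratios scaling, clusters in place of gates, mixed cells kept, libraries weighted equally or library 4 left out, and, in settings chosen after seeing the data, in libraries 1 and 2 alone, without chemokine-rich cells or with cells of both gates added. For dendritic-like cells the count of 1 became 4 with a pseudocount of 1 CPM, 0 with clusters, without library 4 or in libraries 1 and 2 alone, and 3 in libraries 3 and 4 alone or among cells below the median early-response level. The chemokine-rich call of Cd14 (1) was lost (0) in libraries 1 and 2 alone. In the interferon comparison the count of 0 became 2 with a pseudocount of 1 CPM and 1 with stricter gates or without library 4. Leaving out each library gave 2 in all 4 cases for macrophage-like cells, 0 for microglia-like, 0 to 1 for Kupffer-like, 6 to 7 for osteoclast-like, 0 to 1 for dendritic-like, 1 for chemokine-rich and 0 to 1 for interferon cells. The cause of these shifts was not tested. The share of macrophage-like cells with Tlr4, Cd14 and Ly96 UMIs was 0.190% at 2000 UMIs, 1.29% at 4000, 4.93% at 8000 and 14.2% with no thinning, so depth limits it. Over single members, 0 of the differences past 2-fold reversed in sign, and sign changes of smaller differences were not counted. Of all values, 98 planned and 47 added ones moved by more than the spread between libraries, and 946 and 286 did not. No paired analysis was possible because the labels' replicate numbers are tied to no cells and no result comes from a test.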
